A study of Mus musculus and Homo sapiens with 12 samples.

Results

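Halofuginone (HF) treatment of mouse embryonic fibroblasts (MEF) was compared with no treatment (NT) in a genome-wide tRNA-charging assay, gene by gene over the 224 mouse tRNA genes that were counted. The comparison used 6 of the 12 libraries of the series, taken by their labels, with 3 from NT cells and 3 from HF-treated cells. The MEF, a fibroblast line, were grown in high-glucose DMEM with fetal bovine serum and antibiotics. Both groups were then kept for 6 h in the same medium with 10% dialyzed serum, and the HF group received 100 nM HF during this time. The legends of the study give a shorter HF treatment than the labels, and the time of the labels is given here. The other 6 libraries came from human NTERT keratinocytes with or without UV-B. The labels do not state whether the 3 libraries of a group came from separate cultures, but a legend of the study calls them biological replicates. The p-values of limma rest on a spread between libraries that is partly or wholly shared over genes, not on that of each gene alone.

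Aminoacyl-tRNA synthetases attach each amino acid to the CCA end of its cognate tRNAs, and a tRNA that carries its amino acid is called charged. EPRS holds the glutamyl- and prolyl-tRNA synthetase activities in a single protein, and HF inhibits the prolyl activity. Uncharged tRNA activates GCN2, a kinase that phosphorylates the translation initiation factor eIF2. In the assay, periodate and a basic solution remove the last A of uncharged tRNAs, whereas the amino acid protects this base in charged tRNAs. Reads that end in CCA therefore stand for charged tRNA and reads that end in CC for uncharged tRNA. Reads on a tRNA gene with neither of these ends are called other-end reads here. A name such as Pro-TGG-2-1 gives the amino acid, the anticodon, the number of the sequence variant (isodecoder) and the number of the gene copy. All genes with the same anticodon form an isoacceptor. Genes with the same or nearly the same mature sequence can share reads, so that the values of single genes are uncertain where the alignment split such reads.

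The NT libraries held 1203478, 617693 and 3013132 reads on mouse tRNA genes, and the HF libraries 1922139, 2206664 and 6286863. These were 9.52%, 4.79% and 3.43% of all reads in NT and 27.8%, 24.9% and 19.1% in HF libraries. All HF libraries thus lay above all NT libraries (p = 0.1 by exact permutation, two-sided, the smallest p that 3 against 3 libraries allow). The yield of tRNA reads and the treatment cannot be told apart in these libraries. Over all genes, the percentage of charged reads was 74.8%, 59.9% and 85.4% in NT and 91.0%, 90.6% and 82.5% in HF libraries, which overlap (p = 0.2, exact permutation test). Of the 224 genes in 51 anticodon groups, 10 had no read. For charging, 139 genes with a mean of at least 50 charged plus uncharged reads were tested and 85 were below this minimum. Ser-AGA-2-1 was the gene just inside it, with a mean of 50 reads, and Ala-TGC-6-1 the gene just outside, with 49.3.

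Charging was lower after HF treatment in all 4 tested genes of tRNAPro, the substrates of the inhibited enzyme, and no other gene fell past the threshold. Pro-TGG-2-1, the most read of the 4, was charged at 47.9%, 44.1% and 54.2% in NT and at 31.8%, 16.5% and 8.62% in HF. Pro-CGG-1-1 was charged at 51.3%, 41.5% and 57.6% in NT and at 30.02%, 16.7% and 8.47% in HF. For Pro-AGG-1-1, the percentages were 50.3%, 39.0% and 51.9% in NT and 26.5%, 13.0% and 6.46% in HF. In Pro-TGG-1-1, which shares its anticodon with Pro-TGG-2-1, the percentages were 51.5%, 40.0% and 61.7% in NT and 25.1%, 15.2% and 8.05% in HF. For each of the 4 genes all HF libraries were below all NT libraries, and HF library 1 was the highest and HF library 3 the lowest of the treated libraries. The log2 charged-to-uncharged ratio fell by 2.58 in Pro-TGG-1-1, by 2.52 in Pro-AGG-1-1, by 2.33 in Pro-CGG-1-1 and by 2.21 in Pro-TGG-2-1. The adjusted p-values (limma, Benjamini-Hochberg) were 0.0207, 0.0207, 0.0311 and 0.0334, and the standard error was 0.76 for each. These 4 genes were all that passed in the downward direction, or 2.88% of the 139 genes tested. The other members of the family held almost no reads. Pro-TGG-4-1 had 1 to 5 reads per library, none of them charged, and Pro-TGG-3-1 had 2 reads in a single library.

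Whether the 4 Pro genes passed depended on the libraries used. Without NT library 1 or without HF library 2, 0 genes of any family passed (limma; 29 and 23 genes had an unadjusted p under 0.05). The Pro genes then had adjusted p-values from 0.206 to 0.216 and from 0.192 to 0.225. Without HF library 3, Pro-TGG-1-1 passed, and the other Pro genes had adjusted p-values of 0.0550, 0.0725 and 0.0863. Without NT library 2, Pro-TGG-2-1 alone of the Pro genes did not pass (adjusted p = 0.0573). Their log2 changes were negative in each of these fits.

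Most other tRNA genes had more charged reads in the HF libraries. The log2 ratio was above 0 in 134 of the 139 genes, with a median change of 1.30, and 16 genes (11.5%) passed the threshold upward. The groups did not overlap in 43 genes (30.9%). The 16 genes were 5 of 14 Ala genes, 5 of 9 Val genes, 3 of 5 Glu genes, 2 of 17 Arg genes and 1 of 3 Tyr genes, and no other family had a gene that rose past the threshold. Without NT library 1 or HF library 2 none of them passed, and without NT library 2 or HF library 1 only 1 gene rose in each fit (Arg-TCT-2-1 and Tyr-GTA-2-1), whereas 60 rose without NT library 3 and 39 without HF library 3. Ala-TGC-7-1 was charged at 44.8%, 25.0% and 62.7% in NT and at 90.1%, 83.9% and 79.3% in HF. Its log2 ratio rose by 2.79 (adjusted p = 0.0207, limma), the largest rise of any tested gene. With 5 instead of 0.5 added to each number, it rose by 2.25 (adjusted p = 0.0215, limma), less than Ala-AGC-2-1 at 2.63. Ala-AGC-2-1 (53.9%, 37.8% and 64.6% in NT, 96.3%, 84.6% and 68.5% in HF) rose by 2.63. In both Ala genes the HF libraries stayed above the NT libraries, and the order of HF libraries 1 to 3 was the order seen in the Pro genes, from the highest to the lowest. Arg-TCT-1-1 rose by 2.57, Tyr-GTA-2-1 by 2.52, Arg-TCT-2-1 by 2.32 and Ala-AGC-1-1 by 2.26. In Val genes the groups overlapped, as for Val-AAC-1-1 with 54.8%, 41.7% and 82.7% in NT and 95.0%, 90.1% and 73.9% in HF. Among the 5 genes that were below 0, Thr-CGT-3-1 was the one that was not Pro, at -0.58 (adjusted p = 0.465), and it was named after its value was seen.

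**Figure D1:**
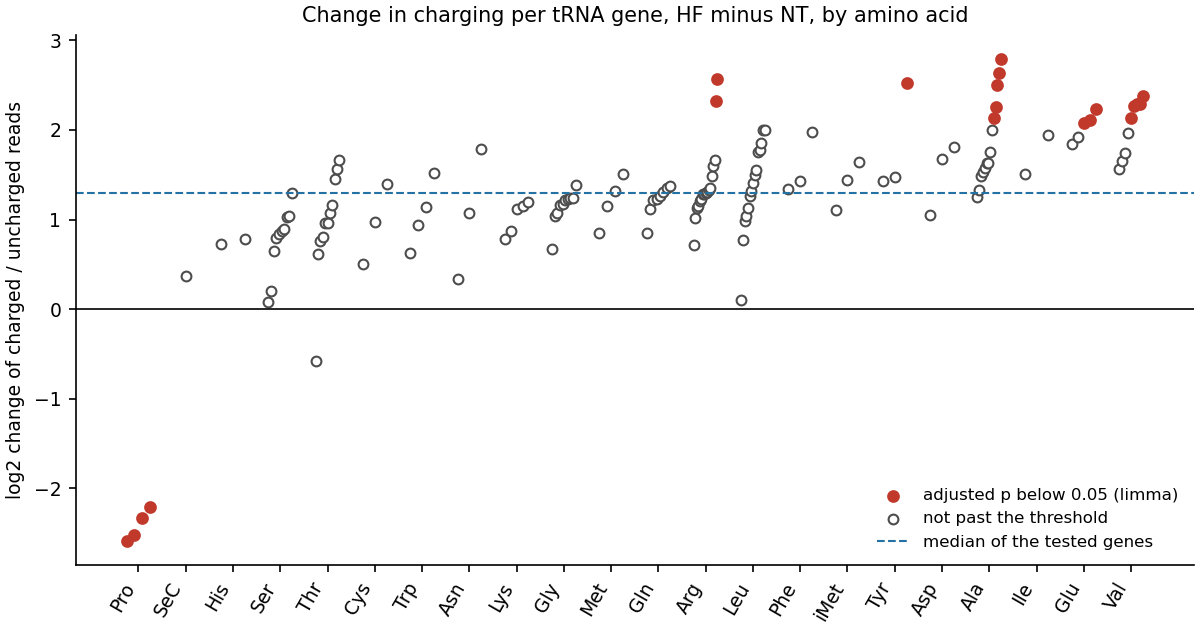
Change in the log2 charged-to-uncharged ratio (HF minus NT, y axis) for each of the 139 tested tRNA genes, grouped by amino acid (x axis, ordered by the median of the family). Each point is 1 gene, filled where the adjusted p from limma was below 0.05, and the dashed line is the median over genes at 1.30. The 4 Pro genes lie between -2.58 and -2.21 and 134 other genes lie above 0.

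The Glu genes are charged by the same protein as the Pro genes but at its other active site. Glu-TTC-1-1 was charged at 78.2%, 61.4% and 92.3% in NT and at 94.8%, 95.6% and 93.3% in HF. Glu-CTC-1-1, the most read gene of the pool, was charged at 55.2%, 38.6% and 77.9% in NT and at 87.8%, 88.2% and 79.4% in HF. In both genes HF libraries lay above NT libraries, but NT library 3 came within 2 percentage points of the lowest HF library. The log2 ratio rose by 2.11 in Glu-TTC-1-1 and by 2.08 in Glu-CTC-1-1 (adjusted p = 0.0413 and 0.0442, limma). Without NT library 2 the changes were 1.43 and 1.51 (adjusted p = 0.345 and 0.286), and both calls were also lost when NT library 1 or either of HF libraries 1 and 2 was left out (adjusted p from 0.216 to 0.303). Over the 9 genes charged by EPRS, 3 rose and 4 fell past the threshold, beside 11.5% and 2.88% of all tested genes, and the 4 were the Pro genes.

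The other groups of genes are given by their counts, to be read beside the 11.5% of all tested genes that rose, the 2.88% that fell and the median change of 1.30. Most members of each group did not pass. Of the 66 tested genes charged by synthetases of the multisynthetase complex, a cytoplasmic assembly that includes EPRS, 5 rose and 4 fell, with a median change of 1.30. Of the 73 genes charged by other synthetases, 11 rose and 0 fell, with a median of 1.25. Class I synthetases, which share 1 catalytic fold, charge 73 of the genes, of which 11 rose and 0 fell (median 1.40). Class II synthetases, to which the prolyl enzyme belongs, charge 66, of which 5 rose and 4 fell (median 1.16). Among the 28 genes of Ala-AGC, Arg-ACG, Ile-AAT, Leu-AAG, Pro-AGG, Ser-AGA, Thr-AGT and Val-AAC, in which the first base of the anticodon is edited to inosine, 6 rose and 1 fell (median 1.6). Gly-ACC-1-1, whose anticodon also begins with A, was not in this list and had a change of 1.16 (adjusted p = 0.194). The 26 genes of tRNAs with a long variable arm (Leu, Ser and selenocysteine) had no gene past the threshold, with a median of 1.04, and all 26 were above 0. For the 11 genes with a queuosine-type anticodon, 1 rose (median 1.43), and for the 10 genes of intron-containing families 3 rose (median 1.45). The most read gene of the initiator tRNA, iMet-CAT-1-1, had a change of 1.64 (adjusted p = 0.108), that of elongator Met, Met-CAT-1-1, 1.15 (adjusted p = 0.194), and His-GTG-2-1 had 0.73 (adjusted p = 0.373). These 3 did not pass.

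**Figure D2:**
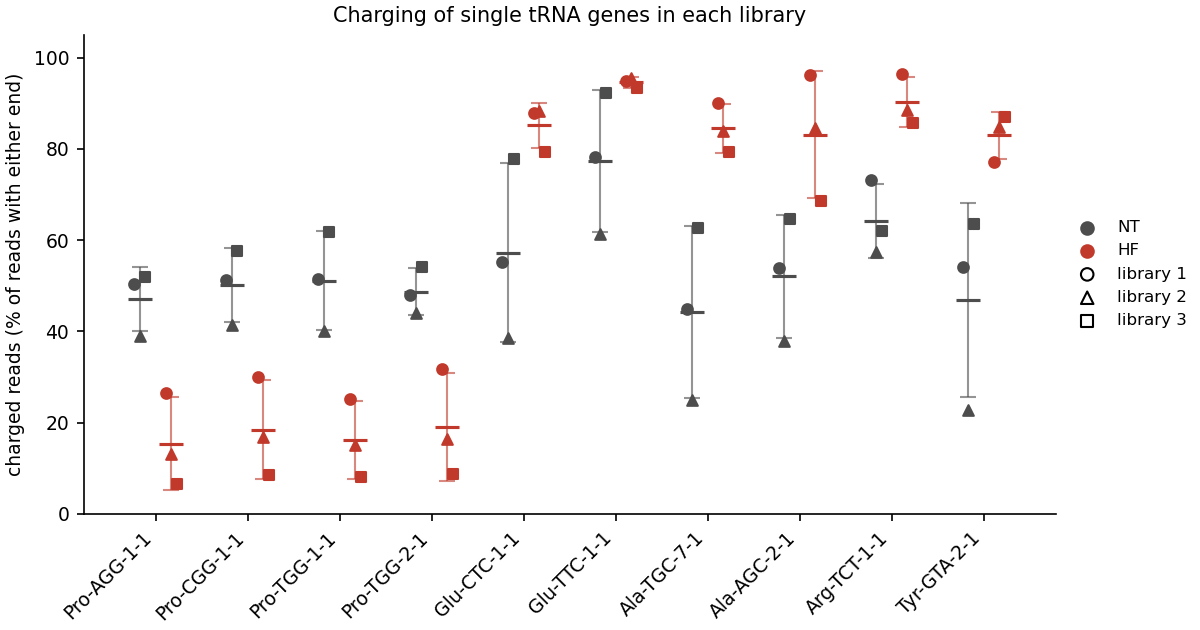
Percentage of charged reads among reads with either end (y axis) for 10 named tRNA genes (x axis) in each NT library (grey) and HF library (red), with the library number given by the symbol and the mean and SD of the 3 libraries as bars. The HF libraries of the 4 Pro genes lie below their NT libraries, whereas those of the 6 Glu, Ala, Arg and Tyr genes lie above them.

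To compare each gene with the rest of its own library, the median log2 ratio over the tested genes was subtracted from every gene. These medians were 1.23, 0.34 and 2.03 in NT and 3.11, 2.76 and 1.83 in HF, so that NT library 3 was above HF library 3. Relative to them, Pro-TGG-1-1 fell by 3.95 (SE 0.32, adjusted p = 0.000138, limma), Pro-AGG-1-1 by 3.88 (SE 0.41, adjusted p = 0.000386), Pro-CGG-1-1 by 3.70 (SE 0.37, adjusted p = 0.000372) and Pro-TGG-2-1 by 3.58 (SE 0.42, adjusted p = 0.000618). On this scale the charged-to-uncharged ratio of Pro-TGG-1-1 was 0.0646-fold that of NT cells. The 4 Pro genes were again all that fell past the threshold (2.88%), and they passed in each of the 6 fits that left out 1 library. The 16 rises were reduced to that of Ala-TGC-7-1 (0.719% of the genes), at 1.42 with an adjusted p of 0.0456. It passed in none of the fits without 1 library, with adjusted p-values from 0.0753 to 0.270 in 5 of them, and without HF library 3 it was below the minimum of reads and not tested. With 5 instead of 0.5 added to each number, Ala-TGC-7-1 had a relative change of 0.94 and did not pass (adjusted p = 0.424, limma). The 5 Glu genes had a median relative change of 0.71 with none past the threshold, and the 9 Val genes 0.76 with none past it. Without the subtraction, genes of 1 library moved together and limma gave every gene the same standard error. The p-values of the unsubtracted ratios are therefore not independent between genes and do not measure the spread of each gene alone. The unequal-variance test of the methods, run here on the unsubtracted percentages of each gene, gave each of the 4 Pro genes an adjusted p of 0.303.

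Mean charging in NT libraries lay far apart between genes of some isoacceptors and close together in others. Among the 41 isoacceptors with at least 2 tested genes, the range of mean charging between genes had a median of 13.0 percentage points in NT and of 5.11 in HF libraries, and it was wider in NT for 32 of them. It was over 20 points in 10 isoacceptors in NT. The widest was Gln-CTG, where Gln-CTG-5-1 was charged at 23.3%, 5% and 34.4% in NT and at 40.3%, 37.6% and 28.0% in HF. Gln-CTG-3-1, of the same anticodon, was charged at 86.2%, 72.3% and 90.4% in NT and at 93.1%, 94.5% and 91.6% in HF. Gln-CTG-5-1 was the lower of the pair in 6 of 6 libraries, and the range over the isoacceptor was 57.8 points in HF. In Arg-TCT, Arg-TCT-2-1 was charged at 20%, 37.8% and 11.9% in NT and at 75.4%, 52.1% and 45.8% in HF. Arg-TCT-1-1 was charged at 73.1%, 57.3% and 61.9% in NT and at 96.5%, 88.5% and 85.8% in HF, above Arg-TCT-2-1 in 6 of 6 libraries. Leu-CAA-1-1 (mean 46.8% in NT) was likewise below Leu-CAA-3-1 (mean 75.6% in NT) in 6 of 6 libraries. These orders were chosen from the NT means and are given without a test. Other orders were not kept. In Thr-CGT, with a range of 20.7 points in NT, the order held in 3 of 6 libraries. In Pro-TGG, with 2.35 points, it held in 2. The range in Lys-TTT was 0.34 points. A range between means is above 0 even where genes do not differ. Whether the higher charging of most genes in HF libraries narrowed the ranges was not tested.

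No gene passed the threshold in a test of its response to HF against that of its own isoacceptor. Each of 123 genes was compared with the sum of the other genes that share its anticodon, and 0 passed the threshold (limma), with 6 at an unadjusted p under 0.05 and a smallest adjusted p of 0.470. The groups did not overlap in 12 genes (9.76%). The 3 genes with the smallest p were Leu-CAA-4-1 with a relative change of 1.04 (SE 0.24), Leu-CAA-3-1 with -1.01 (SE 0.37) and Tyr-GTA-2-1 with 1.02 (SE 0.37). Leu-CAA-4-1 was charged at 73.5%, 48.6% and 72.7% in NT and at 81.6%, 88.5% and 84.1% in HF. Leu-CAA-3-1 was charged at 80.1%, 68.4% and 78.1% in NT and at 69.1%, 83.02% and 78.2% in HF. Leu-CAA-3-1 is the gene of its isoacceptor with the smallest change of its own log2 ratio, 0.10 (adjusted p = 0.899). Between the 2 tested Pro-TGG genes the difference of the changes was -0.38 (SE 0.25, adjusted p = 0.662), with Pro-TGG-1-1 the lower.

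Under HF, tRNAPro held a larger part of the uncharged reads. Its share of all reads ending in CC was 0.982%, 0.658% and 0.674% in NT libraries and 2.68%, 3.01% and 6.53% in HF libraries, a ratio of means of 5.28. All HF libraries were above all NT libraries (p = 0.1, exact permutation test, the smallest possible). Among the amino acid families, Pro moved from rank 12 to rank 8 in the uncharged reads, ordered by the group means. Asp, which is charged by a synthetase of the same complex, had shares of 4.98%, 3.67% and 3.21% in NT and of 8.62%, 6.37% and 11.9% in HF. The share of Thr was 0.345%, 0.368% and 0.276% in NT and 0.375%, 0.564% and 1.08% in HF. Glu was the largest family of uncharged reads in each NT library, at 27.0%, 26.8% and 31.4%, and its share was lower in HF, at 17.8%, 20.6% and 25.4%. In HF libraries 1 and 2, Gly held more, at 24.8% and 20.9%, against 11.4% in HF library 3. The groups did not overlap for Pro, Asp, Thr, Glu, Asn and Ile, and the shares add up to the whole in each library, so that they are not independent. Only the share of Pro was tested. That share uses the same reads ending in CC as the charging of the Pro genes, so it is not a separate result. It also depends on the uncharged reads of the other families and on how much of the pool Pro held.

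**Figure D3:**
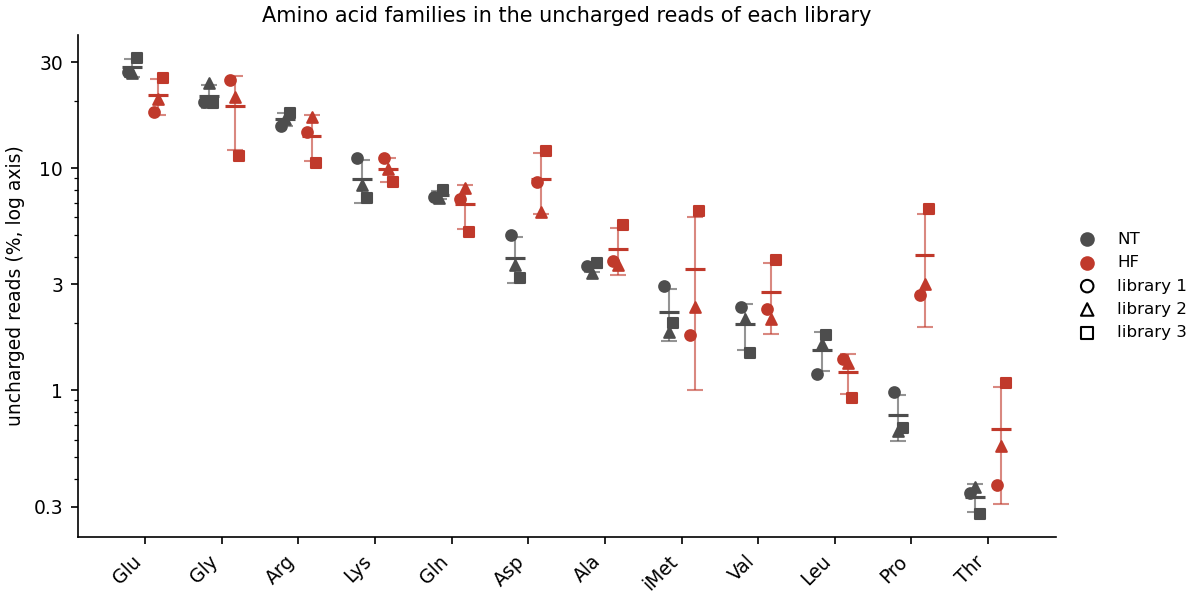
Share of the reads ending in CC that each of 12 amino acid families held (y axis, log scale, in percent) in each NT library (grey) and HF library (red), with the library number given by the symbol and the mean and SD of the 3 libraries as bars. The Pro shares of the HF libraries, from 2.68% to 6.53%, lie above those of the NT libraries, from 0.658% to 0.982%, and Glu lies lower in HF.

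Reads with neither end were fewer in HF libraries across most tRNAs. They made up 8.10%, 13.1% and 6.16% of all tRNA reads in NT and 3.77%, 3.39% and 3.97% in HF libraries, a difference of -5.39 percentage points (p = 0.1, exact permutation test, the smallest possible). Per gene, the log2 ratio of other-end reads to reads with an end was tested in the 147 genes with a mean of at least 50 reads in all. It fell in 65 genes (44.2%), rose in 1 gene (0.68%), and the groups did not overlap in 94 genes (63.9%). The median change was -1.27, a fold of 0.415. Once the library median was subtracted, 0 genes passed (limma), with 27 at an unadjusted p under 0.05. Before the subtraction the change was below 0 in 137 genes and above 0 in 10. With 3 libraries in each group, the subtracted fit cannot show that all genes of a library fell alike. Without NT library 2, which had the most such reads, the median change was -0.94 and 0 genes passed (limma, 65 at an unadjusted p under 0.05), while 24 isoacceptors still passed. Without NT library 1, 37 genes passed, and without HF library 1, 29. The share of tRNA reads among all reads moved with these groups, as given above, and its part in the result was not tested.

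Among the genes that passed and whose groups did not overlap, the fall was largest in Ala-TGC-1-1, a gene of an alanine tRNA, where other-end reads were 2.04%, 5.58% and 0.53% in NT and 0.28%, 0.45% and 0.29% in HF (log2 change -2.53, adjusted p = 0.0247, limma). Arg-ACG-3-1 had 2.03%, 3.66% and 2.02% in NT and 0.39%, 0.53% and 0.42% in HF, with a change of -2.50. Thr-AGT-3-1, Ala-AGC-4-1, Gly-ACC-1-1 and Thr-AGT-2-1 followed with changes from -2.40 to -2.35. Thr-CGT-4-1, named after its value was seen, fell by 2.83 (adjusted p = 0.0354), but its groups overlapped. In the Pro family, Pro-AGG-1-1 fell by 1.68, Pro-CGG-1-1 by 1.51 and Pro-TGG-2-1 by 1.36 (adjusted p from 0.0196 to 0.0364). Pro-TGG-1-1, by contrast, had 3.77%, 3.33% and 6.91% in NT and 5.47%, 2.81% and 2.41% in HF, groups that overlap, with a change of -0.46 (adjusted p = 0.419). Glu-TTC-1-1 fell by 1.79 (adjusted p = 0.0228), and Glu-CTC-1-1 had a change of -1.09 (adjusted p = 0.0942). Among the Met genes, iMet-CAT-1-1 fell by 1.46 (adjusted p = 0.0483), while Met-CAT-1-1 (-1.17, adjusted p = 0.0619) did not pass, nor did His-GTG-2-1 (-0.99, adjusted p = 0.110).

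In tRNAs with a long variable arm no single gene passed for other-end reads. None of the 27 tested genes of Leu, Ser and selenocysteine passed the threshold, against 65 of the 147 genes in all, and their median change was -0.46 against -1.27. Ser-AGA, Ser-CGA, Ser-TGA and Leu-TAA had the highest levels of such reads. For Ser-AGA they were 68.8%, 82.1% and 62.9% of reads in NT and 60.5%, 57.4% and 60.9% in HF, and for Leu-TAA 64.6%, 72.8% and 62.6% in NT and 56.1%, 63.7% and 68.2% in HF. In Ser-GCT the percentages were 11.1%, 21.2% and 15.4% in NT and 13.6%, 16.4% and 21.3% in HF. No test of the difference between these families and the rest was made. Summed by isoacceptor, other-end reads fell in 38 of 48 (79.2%), and the other 10 were 5 Leu isoacceptors, 4 Ser isoacceptors and Ile-TAT. In this fit limma gave nearly the same standard error to every isoacceptor (median 0.468), and 46 of the 48 changes were below 0. The p-values thus rest on a spread shared between isoacceptors, not on that of each alone. None passed once the library median was subtracted. SeC-TCA, the selenocysteine isoacceptor, was among the 38 that fell (-1.03, adjusted p = 0.0365). Its 1 tested gene, with the same change, did not pass over all genes (adjusted p = 0.0661). The intron-containing families were divided. Arg-TCT fell from 47.9%, 56.5% and 56.4% to 16.5%, 30.7% and 24.3% (log2 change -1.92, adjusted p = 0.000386, limma) and Tyr-GTA from 39.0%, 48.1% and 61.0% to 30%, 14.5% and 24.8% (-1.76, adjusted p = 0.0012), whereas Ile-TAT (-0.17, adjusted p = 0.744) and Leu-CAA (-0.66, adjusted p = 0.191) did not pass. Within them, Arg-TCT-1-1 fell by 2.07 and Tyr-GTA-2-1 by 2.00, and Leu-CAA-3-1 was at 0.00 (adjusted p = 0.997). The 1 gene that rose was Ile-TAT-2-1, with 2.56%, 11.5% and 15.3% in NT and 20.7%, 34.0% and 24.8% in HF, a change of 1.82 (adjusted p = 0.0338) on a mean of 55.3 reads. Ile-TAT-2-3, of the same isodecoder, had a change of -0.95 (adjusted p = 0.179).

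**Figure D4:**
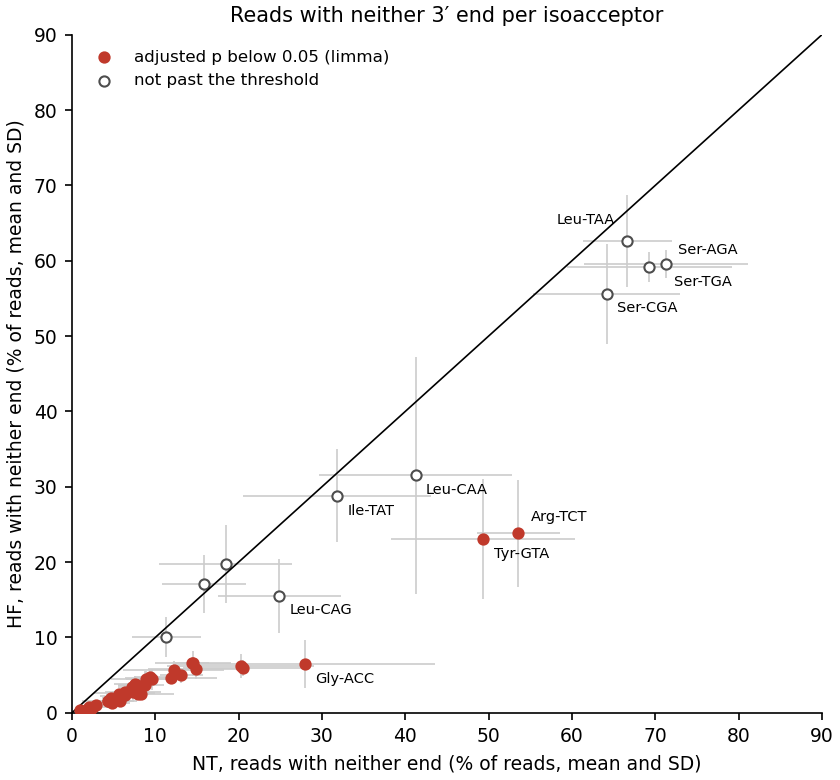
Percentage of reads with neither 3′ end in NT (x axis) and HF libraries (y axis) for the 48 tested isoacceptors, as means with SD over 3 libraries, filled where the adjusted p from limma was below 0.05. The line marks equal values. The 38 filled points lie below the line, and those of Ser and Leu are not filled.

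Few genes passed the threshold for a change in their share of the tRNA pool, although 42 had an unadjusted p under 0.05 (limma). The fewest genes that together held 50% of the reads numbered 7, 7 and 6 in NT and 8, 7 and 7 in HF libraries (p = 0.6, exact permutation test), and Glu-CTC-1-1 alone held 11.1%, 13.3% and 14.6% in NT and 9.41%, 10.5% and 12.3% in HF. The reads of each gene were scaled by TMM to reads in 1000000 tRNA reads (RPM) and tested on the log2 scale. Of 147 genes, 10 rose (6.8%) and 9 fell (6.12%), and the groups did not overlap in 52 (35.4%). The 77 genes under the minimum held 0.0251% of the tRNA reads. With library totals in place of TMM, 3 genes rose and 8 fell, and the median change over genes was -0.14 instead of -0.03.

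The genes that fell (6.12% of all tested) had few reads each, and 7 of the 9 were in intron-containing families. The methods of the study do not state whether introns were removed from the reference sequences. How this affected the reads counted for these families was not tested. All 4 genes of Leu-CAA fell. Leu-CAA-3-1 had 179, 183 and 196 RPM in NT and 52.5, 59.6 and 69.1 in HF, and Leu-CAA-2-1 had 117, 175 and 229 in NT and 30.1, 49.9 and 69.8 in HF. The groups stood well apart in both, and the log2 changes were -1.63 (SE 0.27, adjusted p = 0.00343, limma) and -1.83 (SE 0.36, adjusted p = 0.00654). Leu-CAA-4-1 fell by 1.61 and Leu-CAA-1-1 by 1.14. Arg-TCT-2-1 fell by 1.61, from 179, 262 and 219 RPM to 73.3, 66.5 and 74.1. Tyr-GTA-1-5 fell by 1.83 and Tyr-GTA-4-1 by 0.96, and the others were Leu-CAG-3-1 (-1.67) and Gln-CTG-5-1 (-1.15). Of the same families, Tyr-GTA-2-1 (-0.87, adjusted p = 0.173), Ile-TAT-2-3 (-0.67, adjusted p = 0.169) and Arg-TCT-1-1 (0.52, adjusted p = 0.321) did not pass (limma). All 9 genes that fell had a mean below 500 reads and so were not tested under that higher minimum, where 0 of 95 genes passed (limma, 20 at an unadjusted p under 0.05).

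The genes that rose (6.8% of all tested) were of Val (5), Ala (3) and Thr (2). Ala-AGC-2-1 had 3408, 2469 and 1993 RPM in NT and 19539, 3724 and 9669 in HF, with a change of 1.80 (SE 0.49, adjusted p = 0.0396, limma). HF library 2 was close to the NT libraries and HF library 1 far above them. Val-CAC-2-1, with 5507, 5456 and 5342 in NT and 17123, 8029 and 11684 in HF, rose by 1.11 (SE 0.31, adjusted p = 0.0396), and its HF libraries were in the same order. Ala-AGC-1-1 rose by 1.89, Thr-CGT-3-1 by 1.20, Val-AAC-1-1 by 1.18 and Val-AAC-5-1 by 1.13. None of the 10 passed upward without HF library 1, when 3 genes, all lower, passed, and the same held without NT library 2, NT library 3 or HF library 3 (6, 6 and 7 genes, all lower). The Ala, Val and Glu genes that rose in charging and the Ala and Val genes that rose in the pool are partly the same, since Ala-AGC-1-1, Ala-AGC-2-1, Ala-TGC-1-1, Val-AAC-1-1, Val-AAC-2-1, Val-AAC-5-1 and Val-CAC-2-1 passed in both.

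The Pro genes did not pass in the pool. Pro-TGG-2-1 had 1868, 1521 and 1129 RPM in NT and 1556, 1474 and 5616 in HF, so that HF library 3 alone was above the NT libraries. The changes of the 4 genes were from 0.59 to 0.67 with adjusted p-values from 0.337 to 0.347. When the pool was built from reads ending in CCA alone, the direction turned and the 4 genes passed, with Pro-TGG-1-1 at -1.61, Pro-AGG-1-1 at -1.54, Pro-CGG-1-1 at -1.35 and Pro-TGG-2-1 at -1.26 (adjusted p from 0.0230 to 0.0390, limma). Reads ending in CCA are the charged reads, so this restates the fall in charging given above and is not a separate result. The initiator gene iMet-CAT-1-1 had a change of 0.86 (adjusted p = 0.164), Glu-TTC-1-1 of 0.64 (adjusted p = 0.347) and Glu-CTC-1-1 of -0.17 (adjusted p = 0.739). Met-CAT-1-1 was at 0.06 (adjusted p = 0.904), His-GTG-2-1 at -0.54 (adjusted p = 0.2504) and Arg-TCT-1-1 at 0.52 (adjusted p = 0.321).

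**Figure D5:**
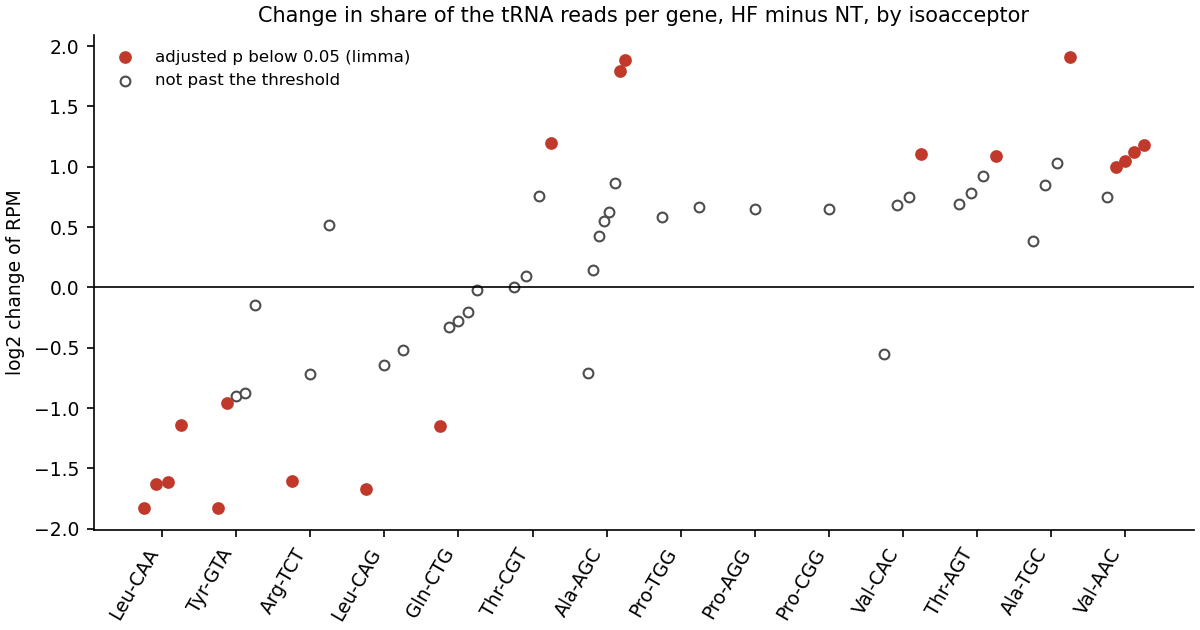
Log2 change in RPM after TMM scaling (HF minus NT, y axis) for each gene of the isoacceptors with a gene past the threshold and of Pro (x axis, ordered by the median). Each point is 1 gene, filled where the adjusted p from limma was below 0.05. The genes of Leu-CAA lie from -1.83 to -1.14, those of Pro from 0.59 to 0.67, and Arg-TCT has genes on both sides of 0.

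Within isoacceptors, the share of a gene among the reads of its anticodon passed the threshold in 4 of 133 genes (3.01%), with groups that did not overlap in 36 (27.1%). Arg-TCT moved in opposite directions. Arg-TCT-1-1 held 32.4%, 29.5% and 30.8% of the reads of its isoacceptor in NT and 66.2%, 46.2% and 61.3% in HF, whereas Arg-TCT-2-1 held 35.3%, 38.1% and 41.2% in NT and 13.2%, 19.97% and 16.1% in HF. The groups were far apart in both genes. The log2 ratio to the other genes rose by 1.70 (SE 0.31, adjusted p = 0.0349, limma) in the former and fell by 1.71 (SE 0.22, adjusted p = 0.0144) in the latter. As parts of 1 sum, the 2 values are not independent. Val-CAC-4-1 fell by 1.59 (adjusted p = 0.0350) and Gly-CCC-4-1 by 1.02 (adjusted p = 0.0349), both at under 1% of their isoacceptors. The 4 calls were all lost without any 1 of the 3 NT libraries or without HF library 3 (0 genes passed, with 24, 13, 22 and 10 at an unadjusted p under 0.05), and for Arg-TCT-2-1 the adjusted p without 1 of those libraries was from 0.0541 to 0.139. Without HF library 2, 20 genes passed. The genes of Leu-CAA fell together in the pool, and their shares within the isoacceptor did not pass. Pro-TGG-1-1 held 12.04%, 11.6% and 11.8% of Pro-TGG reads in NT and 11.9%, 11.8% and 10.2% in HF (log2 change -0.08, adjusted p = 0.810).

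The change of the Pro isoacceptors was also set against that of NTERT keratinocytes exposed to UV-B, which differ in species, cell type and treatment. In NTERT cells without UV-B, mean charging was 25.99% for Pro-AGG, 24.02% for Pro-CGG and 20.2% for Pro-TGG. With UV-B the means were 23.4%, 23.5% and 21.5%. Over all Pro genes, the means in MEF were 49.1% in NT and 18.03% in HF libraries. The changes in the 2 cell types thus started from different levels of charging. In NTERT cells the log2 charged-to-uncharged ratio changed by -0.23 for Pro-AGG, -0.11 for Pro-CGG and 0.06 for Pro-TGG, beside -2.52, -2.33 and -2.25 in MEF. The differences of -2.28, -2.22 and -2.31 did not pass over the 40 isoacceptors compared (adjusted p = 0.168 for each, limma), and 0 isoacceptors passed, with 6 at an unadjusted p under 0.05. After subtraction of the library median the 3 Pro isoacceptors, and none of the others, passed (7.5%), with differences of -3.83, -3.77 and -3.86 and adjusted p-values of 0.000405, 0.00012 and 0.000186.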

How the data were processed

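tRNA libraries of 3 NT and 3 HF-treated MEF samples had been oxidized, deacylated, ligated to barcoded adapters and sequenced paired-end. Per the methods and the labels, the authors trimmed the reads (cutadapt, or Trim Galore in the processing notes) and aligned them with Bowtie2 to tRNA gene sequences (builds GRCm38/mm10 named; the methods describe the human reference only). The deposited values are unnormalized read counts per gene, for all reads, those ending in CCA and those ending in CC. The columns are unnamed, and their order follows the methods. Whether duplicates were collapsed by the random bases of the adapter is not given in the sources used here.

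Reads on no tRNA gene and on yeast sequences were left out. Log2 ratios of charged to uncharged, other-end to end-bearing and gene to other reads, with 0.5 added to each number, and log2 RPM after TMM scaling (trims of 30% and 5%) were fitted with limma 3.58.1 in R 4.3.3 for genes with a mean of at least 50 reads. Adjustment was by Benjamini-Hochberg over all tested genes, with a threshold of 0.05. Single values were compared by a two-sided exact permutation test over 20 labelings. Scripts were tested on simulated data, and figures drawn with matplotlib 3.10.9.

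The genes, lists and comparisons were chosen with earlier results of these data known. Named were the Pro genes, up to 6 genes in each direction with the largest changes past the threshold and groups that did not overlap, the 3 smallest p-values where fewer than 3 genes passed, the most read gene of the Glu, Met, His and intron-containing isoacceptors, and isoacceptors with genes past the threshold in both directions. Other genes were named after their values were seen. Alternatives were other minimums and pseudocounts, a replicate block, other scalings, subtraction of the library median, the unequal-variance test of the methods, equal gene weights, reads of 1 end and leaving out each library. The share of Pro among uncharged reads was added after seeing the data. No tRNA sequence or coordinate was used here.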

Additional observations from a re-analysis of the deposited data

How the results depend on the processing

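The counts of genes past the threshold depended on the settings, most of all for the unsubtracted charging ratio. Against 20 genes, 1 gene passed without a minimum mean, and it was not among the 20. That setting kept only genes with at least 1 counted read in each library. With the unequal-variance test of the methods, run here per gene, 0 passed and 7 had an unadjusted p under 0.05. The study ran that test on isoacceptors and on amino acids with their isoacceptors joined. It reports that each of the 3 Pro isoacceptors trended lower and that the fall of the joined tRNAPro was significant. For the other tRNAs it reports no significant change in charging. The units of those tests differ from the single genes used here. Leaving out 1 library gave 0 to 64 genes for charging, 4 in each case for charging relative to the library median, 0 to 93 for other-end reads per gene, 24 to 38 for other-end reads per isoacceptor, 3 to 18 for the pool, 0 to 20 for the share within the isoacceptor and 0 to 3 for the difference from UV-B (3 without HF library 1). Without a minimum, other-end reads changed in 12 genes, the pool in 7 and the share within the isoacceptor in 1. With a minimum mean of 500 reads, the pool and the share within the isoacceptor had 0 genes past the threshold (20 and 13 at an unadjusted p under 0.05, limma). Subtraction of the library median left 0 genes and 0 isoacceptors with changed other-end reads (27 and 13 at an unadjusted p under 0.05, limma) and gave 3 isoacceptors that differed from UV-B. Library totals gave 11 genes in the pool. With reads of either end alone, 0 genes changed their share within the isoacceptor (25 at an unadjusted p under 0.05, limma). The 4 Pro genes passed relative to the library median under every alternative run for that measure.

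The labels do not state whether libraries with the same number were paired, and the main fits did not pair them. No measure had a correlation over 0.1 for each same-numbered pair of libraries, which does not settle whether they were paired. With a replicate block, 0 genes passed for charging (32 at an unadjusted p under 0.05, limma), 4 relative to the library median, 0 relative to the isoacceptor, 73 for other-end reads, 38 isoacceptors, 20 in the pool and 3 for the share within the isoacceptor.

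Of 844 values of single named genes under the alternatives, 602 kept direction and side of the threshold, 213 no longer passed, 7 newly passed and 22 changed sign. For other-end reads with the library median subtracted, the changes were 0.72 for Pro-TGG-1-1, 0.10 for Glu-CTC-1-1, 0.24 for Ile-TAT-2-3, 0.017 for Met-CAT-1-1 and 0.20 for His-GTG-2-1. In the pool, Met-CAT-1-1 was at -0.047 with library totals. With reads ending in CCA alone the values were -1.54, -1.35, -1.61 and -1.26 for Pro-AGG-1-1, Pro-CGG-1-1, Pro-TGG-1-1 and Pro-TGG-2-1, 0.14 for Glu-CTC-1-1, 0.26 for Tyr-GTA-2-1 and -0.033 for Met-CAT-1-1. Without 1 library, ranges that crossed 0 were -0.17 to 0.40 for Leu-CAA-3-1 in charging and -0.55 to 0.33 in other-end reads, -0.0051 to 1.03 for Pro-AGG-1-1, -0.39 to 0.089 for Glu-CTC-1-1 and -0.16 to 0.19 for Met-CAT-1-1 in the pool, and -0.13 to 0.00029 for Pro-TGG-1-1 in its share within the isoacceptor. The cause was not tested. Genes near the minimum of 50 reads also carry counting error, and whether reads are independent molecules is not known.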

Other observations

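Values of families not described above are given here without a test by family. Asp-GTC-1-1, the most read gene of tRNAAsp, was charged at 33.9%, 26.02% and 73.0% in NT and at 71.5%, 77.1% and 65.3% in HF, so that NT library 3 was above 2 of the HF libraries. No Asp gene passed the threshold for charging. The share of Asp in the pool was 2.06%, 2.05% and 1.84% in NT and 2.82%, 2.69% and 6.19% in HF, with HF library 3 the highest. Gly, the largest family of the pool by the NT means, held 25.6%, 28.0% and 23.9% of the reads in NT and 25.1%, 24.1% and 14.4% in HF, and HF library 3 was here the lowest. The share of Pro was highest in that library, at 1.22% against 0.338% and 0.331% in the other HF libraries and 0.470%, 0.427% and 0.218% in NT.

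The selenocysteine gene SeC-TCA-1-1 was charged at 80.4%, 68.7% and 85.5% in NT and at 82.4%, 84.9% and 81.2% in HF, a log2 change of the charging ratio of 0.37 (adjusted p = 0.646, limma). For tRNAThr and tRNAVal, other-end reads fell in 8 of 11 and 8 of 10 tested genes, with median log2 changes of -1.95 and -1.91, and for tRNAPhe in 3 of 3 with a median of -1.51 (limma), beside 44.2% of all 147 tested genes and a median of -1.27. Once the library median was subtracted, 0 genes passed for other-end reads (27 at an unadjusted p under 0.05).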
